A study of Mus musculus with 45 samples.

Results

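The proteins of the cytosolic ribosome were followed in the left ventricle of wild-type mice after constriction of the aorta in the newborn. The genes were taken by their names, as those called Rpl or Rps with a number, with the stalk genes Rplp0, Rplp1 and Rplp2, and without numbered pseudogenes or the S6 kinases. They came to 83 of the 27007 genes in the table: 43 of the large subunit, 30 of the small subunit, 3 of the stalk and 7 whose names mark a copy of another member (Rpl3l, Rpl6l, Rpl7l1, Rpl22l1, Rpl32l, Rpl39l and Rps27l). Of these 83 genes, 81 had enough counts to be tested, and Rpl32l and Rpl39l did not. RNA was taken at 4, 6 and 8 weeks of age from mice with a reversible constriction (Rev-nAAC), from mice with a constriction and no reversal (nAAC) and from mice with a sham operation as the control, and every operation was done on the first day of life. There were 5 libraries in each of the 9 groups, and the labels do not say when the reversible constriction was released. They also do not say that each library is 1 mouse, so the p-values measure the spread between libraries.

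Each library held 31.59 to 35.97 M counts. Markers of cardiomyocytes were high in all 45 libraries, with a summed level of 22371 to 55083 CPM (counts scaled to a common library size), against 12.4 to 352 CPM for atrial markers. All 15 sham libraries came from males by their Xist and Y-linked counts. Females gave 2, 2 and 4 of the 5 Rev-nAAC libraries and 3, 4 and 2 of the 5 nAAC libraries at 4, 6 and 8 weeks, so sex and operation are partly tied, and values from male libraries alone are given beside the main results. Replicate 1 of nAAC at 4 weeks carries a sham treatment tag against its title and was kept with nAAC. Replicates 3 and 5 of nAAC at 4 weeks stand apart in the genes described here, and counts that rest on them are given with and without them.

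A ribosome is built from ribosomal RNA and a fixed set of proteins, most of which are present once per particle. The small subunit decodes the message, the large subunit joins the amino acids, and the stalk draws in the factors that drive each step. In vertebrates the messages of these proteins usually begin with a C and a run of pyrimidines, the 5′ terminal oligopyrimidine (TOP) tract, through which mTOR signalling sets how strongly they are translated. A few members have a second copy with a restricted pattern: Rpl3l is a copy of Rpl3 that is used in skeletal and heart muscle, where it takes the place of Rpl3 as the muscle matures. Growth of the heart under load is known to go with more ribosome production.

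The start sites of the messages are shown for 4 members with a start tract, which a minority of the members had, and for Rps2 and Rpl3l, on which the results turn. The windows run from 25 bases before to 24 bases after an annotated first transcribed base, in RefSeq coordinates of GRCm38.p6. Capitals mark a start tract, defined here as a C at the first transcribed base followed by at least 4 further C or T. The first 4 members shown have a long tract.
Rps6, chr4:86857343-86857392, minus strand: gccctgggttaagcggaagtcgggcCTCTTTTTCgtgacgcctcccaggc
Rpl35, chr2:39005107-39005156, minus strand: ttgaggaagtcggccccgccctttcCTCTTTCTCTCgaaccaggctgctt
Rpl28, chr7:4792940-4792989, plus strand: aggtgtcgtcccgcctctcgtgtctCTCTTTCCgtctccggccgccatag
Rps27, chr3:90213624-90213673, minus strand: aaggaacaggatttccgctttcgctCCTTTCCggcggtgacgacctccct
Rps2, chr17:24720038-24720087, plus strand: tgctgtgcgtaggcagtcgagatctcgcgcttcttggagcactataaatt
Rpl3l, chr17:24727801-24727850, plus strand: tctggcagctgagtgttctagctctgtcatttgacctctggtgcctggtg
Neither of the last 2 windows has such a tract at the start used for it. The Rps2 window lies inside the gene, which runs from 24718121 to 24721927. It therefore does not show whether a tract is present at the first base of the Rps2 gene. RefSeq gave a promoter for 62 of the 83 members, and 14 of them (22.6%) had a start tract, against 3.01% of 27025 genes. Searched on both strands from 250 bases before to 50 bases after the start, CCGGAAG was present in 25 of the 62 members (40.3%, against 9.93% of all genes) and GCCATCTT in 6 (9.68%, against 3.19%). The motif CANNTG, found in 51.6% of the members and 74.99% of all genes, and TATAAA, found in 12.9% and 15.7%, were not more frequent in the members. An annotated start can lie some bases from the one used in the heart, so a missing tract says only that the letters are not at that position.

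The clearest change in the set was an exchange of Rpl3l and Rpl3 in their relative levels. Under nAAC the muscle copy Rpl3l fell at all 3 ages and its general counterpart Rpl3 rose, each called in edgeR's quasi-likelihood test with Benjamini-Hochberg adjustment over 15444 genes. At 6 weeks Rpl3l read 40.9, 21.2, 31.4, 36.4 and 15.2 CPM in the nAAC libraries, against 202, 226, 226, 203 and 187 CPM in the sham libraries. Every nAAC library was far below every sham library. At 4 weeks it read 59.0, 44.6, 26.9, 38.9 and 108 CPM in nAAC libraries, against 213, 182, 212, 166 and 201 CPM in sham libraries. Replicate 5 was the highest nAAC library and still lay below all sham libraries. At 8 weeks it read 31.3, 40.5, 30.4, 28.0 and 37.8 CPM in nAAC libraries, against 223, 236, 131, 166 and 214 CPM in sham libraries. The 8-week groups did not overlap either. The log2 fold changes of Rpl3l were −1.82 ± 0.30 (SE, adjusted p = 7.8e-06) at 4 weeks, −2.85 ± 0.31 (adjusted p = 2.3e-09) at 6 weeks and −2.53 ± 0.31 (adjusted p = 1.8e-08) at 8 weeks.

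Rpl3 moved the other way. At 4 weeks it read 363, 377, 636, 359.6 and 460.4 CPM in nAAC libraries, against 228, 195, 188, 212 and 191 CPM in sham libraries. All nAAC libraries were above all sham libraries, and nAAC replicate 3 was the highest. At 6 weeks it averaged 411 ± 50.5 CPM in nAAC and 273 ± 27.2 CPM in sham libraries (SD, n = 5 each). At 8 weeks the means were 431 ± 37.3 CPM in nAAC and 293 ± 27.4 CPM in sham libraries, again without overlap. Its log2 fold changes were 1.12 ± 0.13 (SE, adjusted p = 1.1e-08) at 4 weeks, 0.59 ± 0.13 (adjusted p = 0.00022) at 6 weeks and 0.56 ± 0.13 (adjusted p = 0.00049) at 8 weeks. Among male libraries alone, 2, 1 and 3 of them nAAC at the 3 ages, the log2 values were 1.34, 0.75 and 0.55 for Rpl3 and −2.43, −3.30 and −2.40 for Rpl3l, all called.

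With the reversible constriction Rpl3l was higher than under nAAC at 6 and 8 weeks and lower than in sham hearts at 4 and 8 weeks. At 6 weeks Rpl3l read 85.4, 104, 89.2, 192 and 157 CPM in Rev-nAAC libraries, all above the nAAC libraries, with a log2 fold change of 2.11 ± 0.30 (SE, adjusted p = 3.0e-06) against nAAC. At 8 weeks it read 95.7, 87.8, 86.8, 91.5 and 119 CPM in Rev-nAAC libraries, all above the nAAC and all below the sham libraries. The 8-week log2 fold change was 1.52 ± 0.30 (adjusted p = 0.00016) against nAAC and −1.01 ± 0.29 (adjusted p = 0.0063) against sham. Against sham at 6 weeks the value of −0.73 ± 0.29 (adjusted p = 0.075) was not called. At 4 weeks Rpl3l read 103, 48.1, 34.6, 131 and 90.4 CPM in Rev-nAAC libraries. These overlapped the nAAC libraries and lay below all sham libraries, with a log2 fold change of 0.55 ± 0.29 (adjusted p = 0.32) against nAAC and −1.26 ± 0.29 (adjusted p = 0.0014) against sham. The 8-week difference from sham was −0.70 (adjusted p = 0.34) among male libraries, of which only 1 was Rev-nAAC.

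Rpl3 in Rev-nAAC hearts lay at the level of sham hearts at 8 weeks. It read 308, 299, 285, 287 and 289 CPM in Rev-nAAC, 468, 368, 434, 439 and 445 CPM in nAAC and 269, 269, 328, 316 and 282 CPM in sham libraries at that age. The Rev-nAAC libraries lay below all nAAC libraries and within the range of the sham libraries. Against nAAC, Rpl3 fell by 0.50 ± 0.13 on the log2 scale at 6 weeks (adjusted p = 0.0032) and by 0.55 ± 0.13 at 8 weeks (adjusted p = 0.0010), and the 4-week value of −0.33 ± 0.13 (adjusted p = 0.16) was not called. Against sham, Rpl3 rose by 0.79 ± 0.13 at 4 weeks (adjusted p = 1.6e-05) and was not called at 6 weeks (0.09 ± 0.13, adjusted p = 0.68) or 8 weeks (0.00 ± 0.13, adjusted p = 0.99). At 8 weeks, therefore, Rpl3 in Rev-nAAC hearts was not called different from sham while Rpl3l was called lower. Among male libraries the 8-week value against nAAC was −0.56 and was not called (adjusted p = 0.135).

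Set against each other, Rpl3l made up 11.5 ± 5.50%, 6.75 ± 2.77% and 7.31 ± 1.62% of the summed Rpl3 and Rpl3l counts in nAAC libraries at 4, 6 and 8 weeks (SD, n = 5 each). In Rev-nAAC libraries the shares were 19.1 ± 9.68%, 30.6 ± 11.8% and 24.6 ± 2.60%. In sham libraries they were 49.0 ± 3.47%, 43.4 ± 2.81% and 39.6 ± 7.80%. No nAAC library, with a highest share of 19.0%, reached the lowest sham share of 28.6%. The 2 transcripts are close in length, 1375 bases for Rpl3l and 1351 for Rpl3. Per kilobase, the mean levels at 8 weeks were 70.0 CPM for Rpl3l and 217 CPM for Rpl3 in Rev-nAAC, 24.4 and 319 CPM in nAAC, and 141 and 217 CPM in sham hearts.

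**Figure D1:**
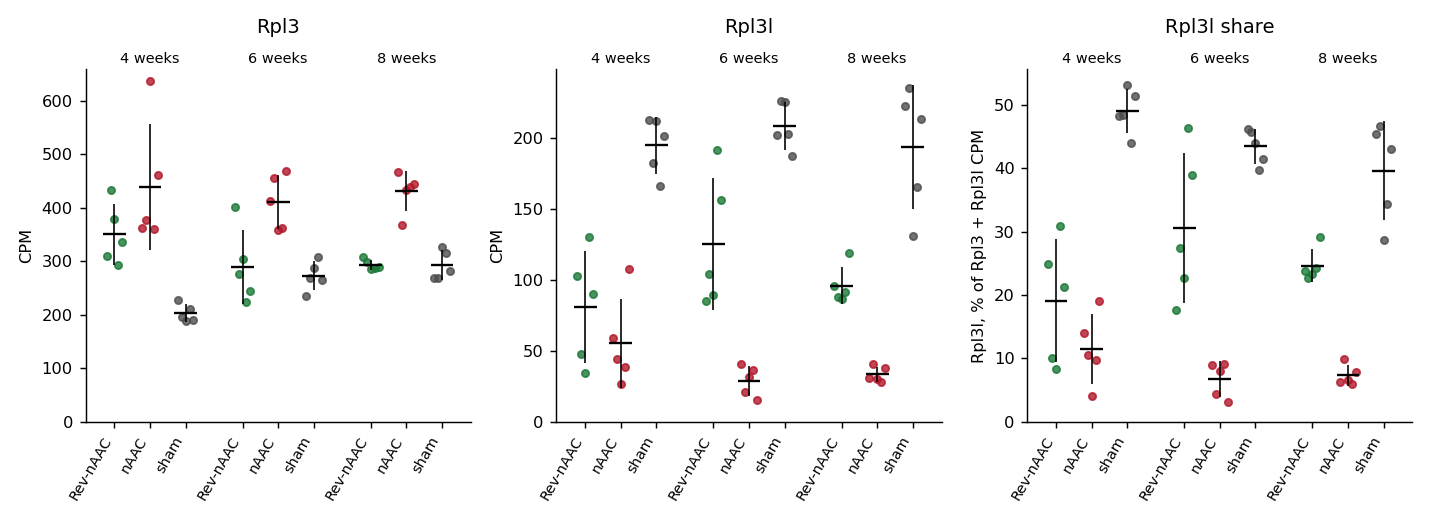
Levels of Rpl3 and Rpl3l in CPM, and the share of Rpl3l in the counts of both genes in percent, in 45 libraries by age and operation. Points are libraries, bars are group means and lines the SD. The Rpl3l share is 4.05 to 19.0% in the 5 nAAC libraries at 4 weeks and 44.0 to 53.1% in the 5 sham libraries.

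With nAAC the summed cardiomyocyte markers were lower, as Rpl3l was, and at 8 weeks the summed fibroblast markers were higher. The 6 cardiomyocyte markers, all detected, summed to 24312 to 36000 CPM in nAAC and 37432 to 43830 CPM in sham libraries at 4 weeks, to 25485 to 30455 CPM in nAAC and 47043 to 49439 CPM in sham libraries at 6 weeks, and to 22371 to 29936 CPM in nAAC and 39794 to 55083 CPM in sham libraries at 8 weeks. In Rev-nAAC libraries they summed to 24302 to 37868, 34564 to 43944 and 29884 to 39334 CPM at the 3 ages. The 5 fibroblast markers, all detected, summed to 1707 to 2727 CPM in nAAC, 1656 to 2038 CPM in Rev-nAAC and 829 to 1349 CPM in sham libraries at 8 weeks. Fewer cells of a type and less RNA per cell cannot be told apart in whole tissue, and the part of either in the Rpl3l result was not tested. The cardiomyocyte sum in nAAC averaged 26511 CPM against 49135 CPM in sham libraries at 8 weeks, while Rpl3l averaged 33.6 CPM against 194 CPM.

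Most other members moved together from library to library. The SD of a member over the 45 libraries was 0.21 on the log2 scale at the median, and 0.08 once the members' median in each library was subtracted. It became smaller for 78 of the 81 members, the exceptions being Rpl3l, Rps2 and Rpl7l1. The 5 members with the widest spread about the members' median were Rpl3l (1.19), Rpl3 (0.34), Rps2 (0.30), Rpl22l1 (0.23) and Rpl7l1 (0.22), and Rpl27a, a large subunit protein, had the narrowest (0.04). Summed, the 83 genes took 2.42 ± 0.553%, 2.22 ± 0.0862% and 2.27 ± 0.0518% of the counts in nAAC libraries at 4, 6 and 8 weeks (SD, n = 5 each). They took 2.39 ± 0.269%, 2.24 ± 0.241% and 2.22 ± 0.164% in Rev-nAAC libraries and 1.96 ± 0.174%, 1.80 ± 0.214% and 1.92 ± 0.135% in sham libraries. Mitochondrially encoded transcripts took 21.5% of the counts in nAAC, 24.7% in Rev-nAAC and 25.8% in sham libraries on average at 8 weeks. Of the counts outside the mitochondrial genome, the members took 2.89% in nAAC, 2.95% in Rev-nAAC and 2.58% in sham libraries at that age.

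**Figure D2:**
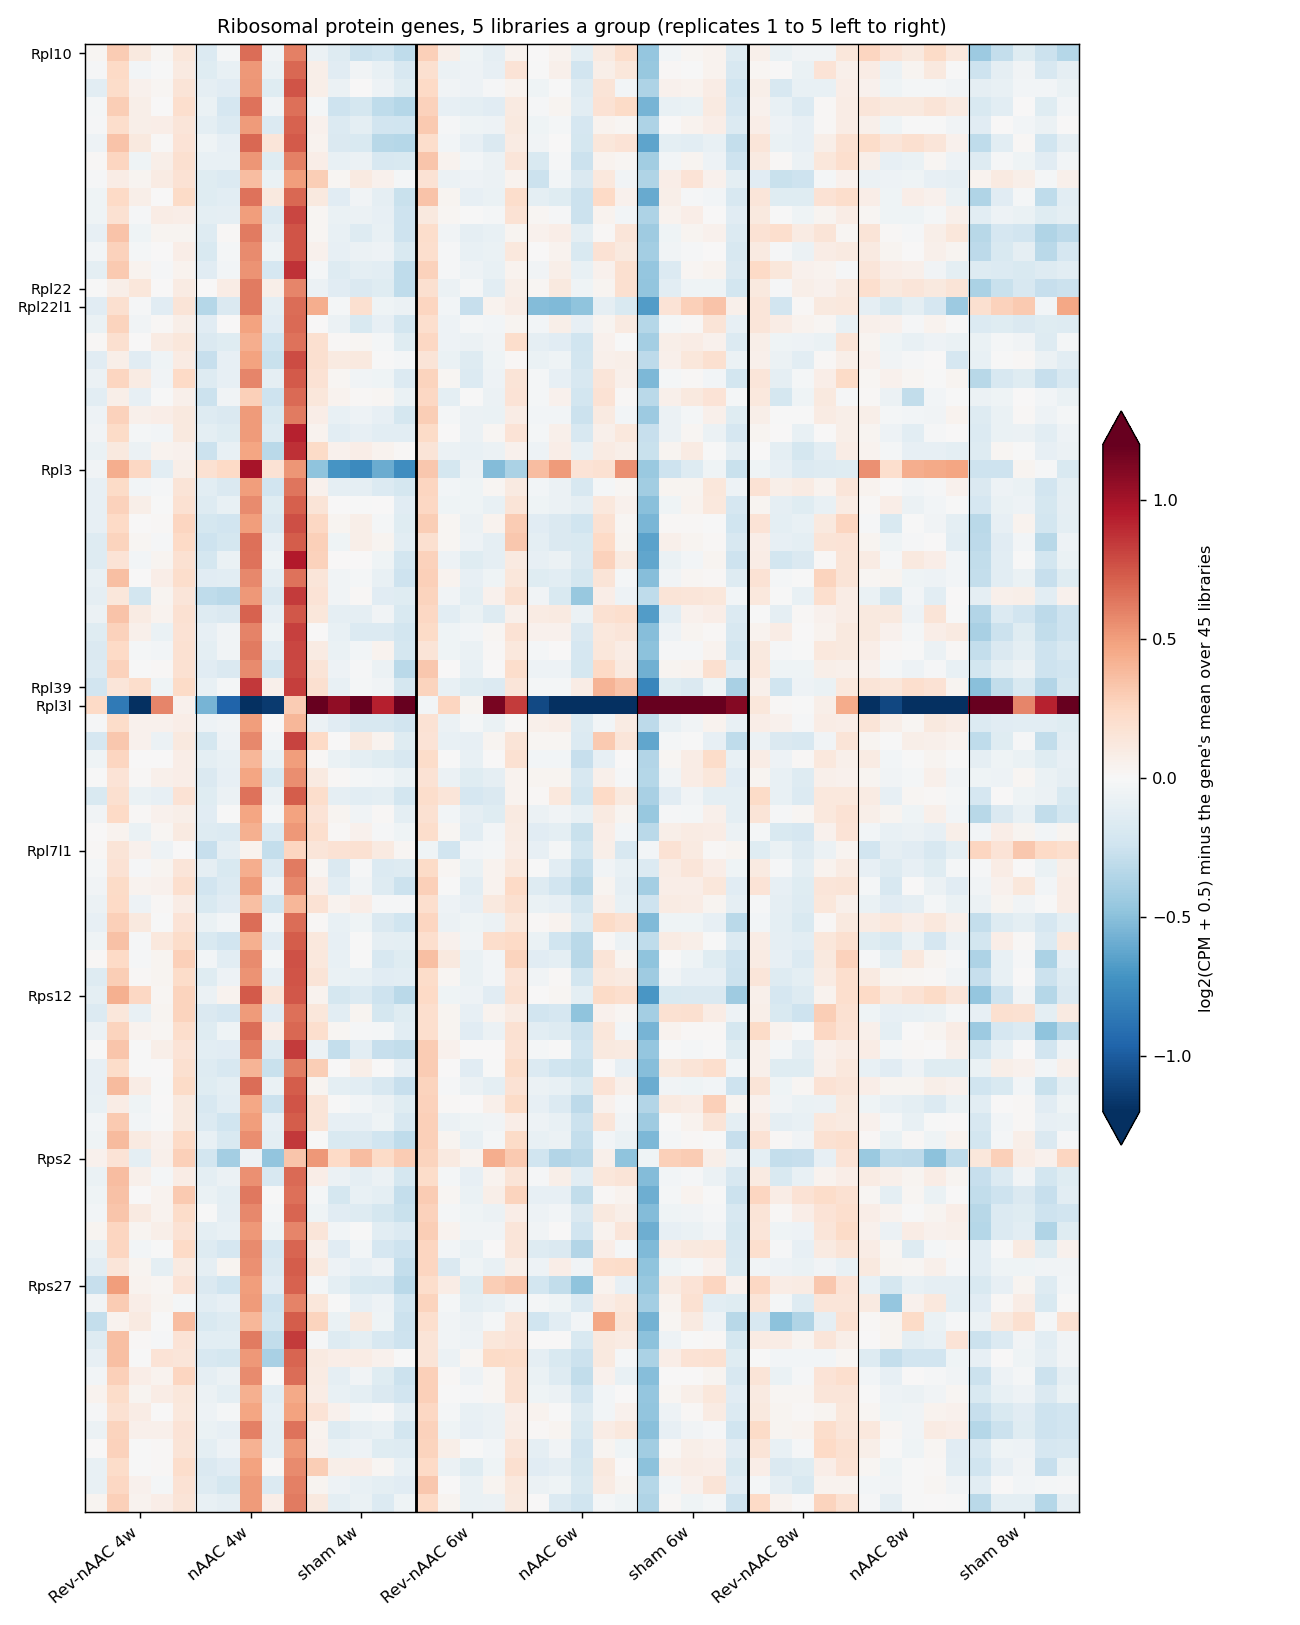
Deviation of the 81 tested members from their own mean over 45 libraries, on the log2 scale, with members in rows and libraries in columns grouped by operation and age. Colours end at ±1.2. Rows run in order of gene name, and the 10 labelled ones are described in the text. Whole columns share a colour, as in replicates 3 and 5 of nAAC at 4 weeks. The row of Rpl3l goes against the column of replicate 3, while in replicate 5 it is above its own mean like the other members.

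With nAAC at 4 weeks, 41 of the 81 members rose and 3 fell, against 19.5% and 21.2% of all genes tested (40.7% in either direction). The median log2 fold change was 0.28 for the members and −0.03 for all genes. By role, 23 of 43 large subunit genes rose and none fell, 16 of 30 small subunit genes rose and 1 fell, 1 of 3 stalk genes rose, and among the 5 tested copies 1 rose and 2 fell. The copy that rose was Rpl6l (0.34 ± 0.13, adjusted p = 0.028), which the annotation lists as a processed pseudogene. The members with the smallest p among those that rose were Rpl3, Rpl22 (0.46 ± 0.09, adjusted p = 5.6e-05), Rpl13a (0.52 ± 0.12, adjusted p = 0.00068) and Rps12 (0.54 ± 0.13, adjusted p = 0.00068). Those that fell were Rpl3l, Rps2 (−0.47 ± 0.12, adjusted p = 0.0010) and Rpl7l1 (−0.19 ± 0.07, adjusted p = 0.038). Rpl5 (0.25 ± 0.10, adjusted p = 0.032), which with Rpl11 holds back the p53 inhibitor Mdm2 when ribosome assembly fails, rose, and Rpl11 (0.27 ± 0.11, adjusted p = 0.056) was not called. Rps19 (0.44 ± 0.13, adjusted p = 0.0054) and Rps3 (0.34 ± 0.11, adjusted p = 0.016) of the small subunit rose, and Rps6, the target of the S6 kinases, was not called (0.23 ± 0.10, adjusted p = 0.054). Of the 10 fits that left out 1 library, 7 ended the call of Rpl7l1 (adjusted p up to 0.143) and 5 that of Rpl5 (up to 0.148). The call of Rps3 was lost without nAAC replicate 3 (adjusted p = 0.0949) and without replicate 5 (adjusted p = 0.0881), and that of Rps19 without replicate 5 (adjusted p = 0.0561).

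The 4-week count rested on 2 libraries. The median deviation of the members from their own means was 0.52 and 0.69 on the log2 scale in nAAC replicates 3 and 5. It was −0.14, −0.11 and −0.12 in nAAC replicates 1, 2 and 4, and 0.11, −0.08, −0.05, −0.10 and −0.19 in the sham libraries. In replicates 3 and 5, 79 and 81 of the 81 members were above their own means, against 2, 6 and 10 in the other nAAC libraries, which lay among the sham libraries. Transcripts under 1000 bases, 908 of them with the members left out, deviated by 0.17 and 0.49 in the same 2 libraries and by −0.13, −0.08 and −0.16 in replicates 1, 2 and 4. Replicate 5 also correlated least with the other libraries of its group, at a median of 0.974. With both libraries left out, a setting chosen after seeing the data, 2 members rose and 8 fell, with a median of −0.05. The shares of all genes under that setting are not given here. Scaled to the members alone, so that each is read against the others, and with all libraries, 9 rose and 9 fell, a setting also chosen after seeing the data. Of the 44 calls 5 were shared with the fit without both libraries, those of Rpl3 (0.85), Rpl22 (0.22), Rpl3l (−2.04), Rps2 (−0.71) and Rpl7l1 (−0.36). Of all members at 4 weeks only Rpl3, Rpl22 and Rpl4, a large subunit protein named here after its values were seen, had every nAAC library above every sham library, against 10.8% of all genes, and only Rpl3l had every one below, against 12.6%.

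**Figure D3:**
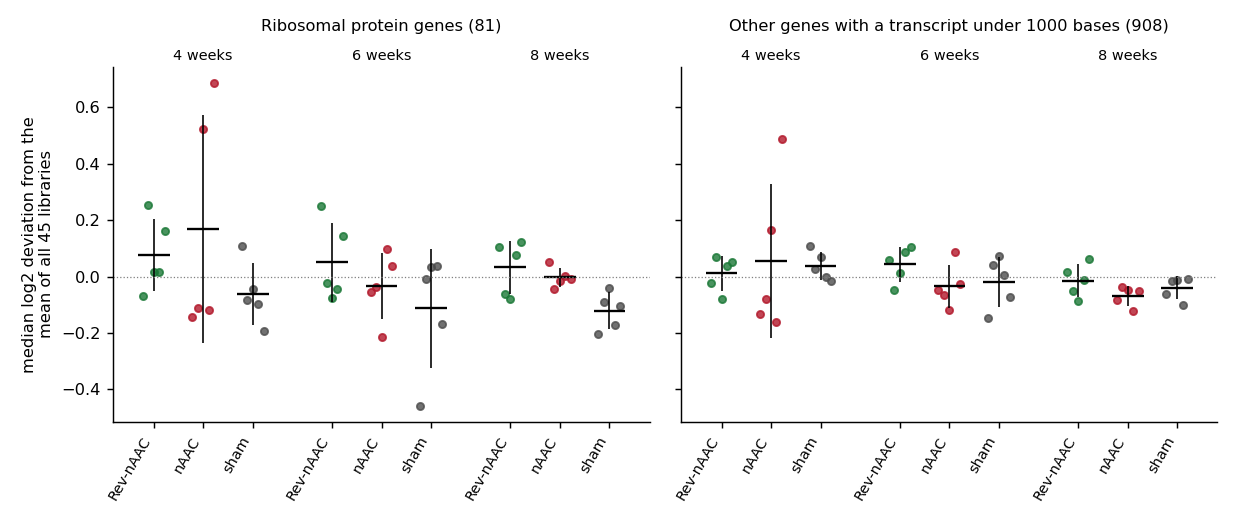
Median deviation from their own means, on the log2 scale, of the 81 members and of 908 other transcripts under 1000 bases, in each of 45 libraries by age and operation. Replicates 3 and 5 of nAAC at 4 weeks have member medians of 0.52 and 0.69, and sham replicate 1 at 6 weeks has −0.46.

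At 6 weeks few members were called. With nAAC 5 rose and 3 fell of 81, against 24.5% and 23.8% of all genes (48.3% in either direction), and the median was 0.07. The 5 that rose were Rpl3, Rpl39 (0.46 ± 0.14, adjusted p = 0.0068), Rps12 (0.39 ± 0.13, adjusted p = 0.0095), Rpl22 (0.25 ± 0.09, adjusted p = 0.020) and the stalk gene Rplp1 (0.27 ± 0.11, adjusted p = 0.048). The Rplp1 call was lost in 5 of the 10 fits that left out 1 library (adjusted p up to 0.175), and the Rpl22 call in 2 of them, where leaving out nAAC replicate 5 gave 0.22 (adjusted p = 0.0603) and leaving out sham replicate 1 gave 0.18 (adjusted p = 0.102). Those that fell were Rpl3l, Rps2 and Rpl22l1. Every nAAC library was above every sham library for Rpl3, Rpl39 and Rps12, against 18.3% of all genes, and below it for Rpl3l, against 18.9%. Among male libraries, of which a single library was nAAC, Rpl3, Rpl3l and Rps2 were called. Scaled to short transcripts instead of to all genes, again chosen after seeing the data, 33 members rose and 3 fell, and scaled to the members 8 rose and 11 fell. The shares of all genes under these scalings are not given here, so these counts cannot be read as particular to the members.

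At 8 weeks 17 members rose and 4 fell with nAAC, against 23.8% and 23.5% of all genes (47.2% in either direction), with a median of 0.12. Of the large subunit 11 of 43 rose and none fell, and of the small subunit 5 of 30 rose and 1 fell. Of the stalk genes Rplp1 rose (0.27 ± 0.11, adjusted p = 0.048), while Rplp0 (−0.09 ± 0.10, adjusted p = 0.49) and Rplp2 (−0.11 ± 0.12, adjusted p = 0.49) were not called. All 10 fits that left out 1 library ended the Rplp1 call, with values of 0.24 to 0.29 and adjusted p up to 0.105. Of the 5 tested copies 3 fell and none rose. The rises were small: Rpl22, Rpl3, Rpl10 (0.47 ± 0.11, adjusted p = 0.00057) and Rps12 (0.43 ± 0.13, adjusted p = 0.0046) had the smallest p. For 33 members every nAAC library was above every sham library, against 18.4% of all genes, and for 5 every one was below, against 19.6%. Those 5 were Rpl3l, Rps2, Rpl7l1, Rpl22l1 and the large subunit gene Rpl15, which is named after its values were seen. Scaled to short transcripts 43 members rose and 4 fell, against 17 and 4 in the main fit, so the number of small rises depends on the scaling. Scaled to the members 14 rose and 14 fell. That scaling reads each member against the others, so it cannot show whether the set as a whole rose. Among male libraries alone 13 rose and 4 fell. The shares of all genes under these alternatives are not given here.

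**Figure D4:**
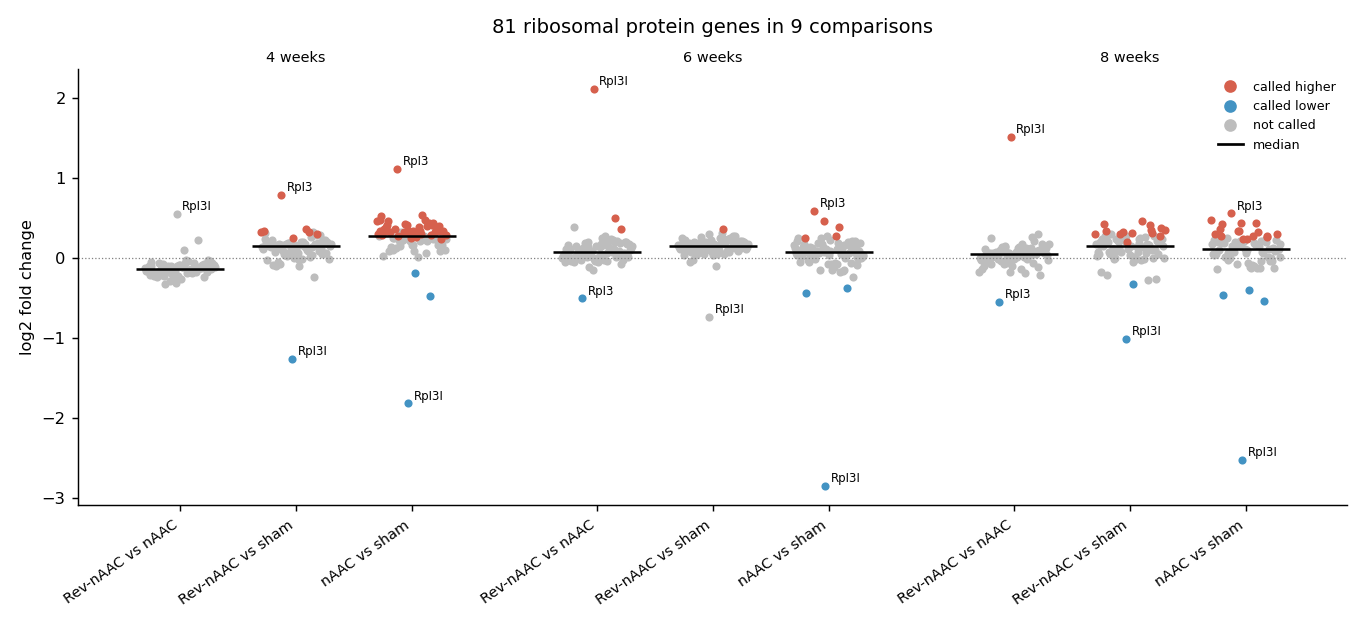
Log2 fold changes of the 81 members in 9 comparisons, by age. Each point is a member, coloured by its call in edgeR's quasi-likelihood test, and the black bar is the median, which runs from −0.13 to 0.28. Rpl3l and Rpl3 lie outside the band of the other members in most comparisons.

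Rps2, a small subunit protein at the mRNA entry channel, was the only gene of its subunit that fell with nAAC, and it did so at all 3 ages. At 8 weeks it read 482, 531, 528, 469 and 532 CPM in nAAC libraries, against 720.4, 803, 701, 681 and 788 CPM in sham libraries. The groups were apart by a wide gap. At 4 weeks it read 563, 494, 632, 473 and 830.4 CPM in nAAC libraries, against 946, 778, 851, 771 and 810.0 CPM in sham libraries. The nAAC libraries were below all sham libraries except replicate 5, which lay within their range. Its log2 fold change was −0.37 ± 0.12 at 6 weeks (adjusted p = 0.0071) and −0.54 ± 0.12 at 8 weeks (adjusted p = 0.00018). Against nAAC, Rev-nAAC raised it by 0.50 ± 0.12 at 6 weeks (adjusted p = 0.0012), when the means were 777 ± 86.9 CPM in Rev-nAAC, 551 ± 82.1 CPM in nAAC and 713 ± 90.0 CPM in sham libraries, and among male libraries alone the value of 0.51 (adjusted p = 0.068) was not called. At 8 weeks Rps2 read 607, 540.4, 544, 614 and 735 CPM in Rev-nAAC libraries, all above the nAAC libraries, but the log2 difference of 0.26 ± 0.12 (adjusted p = 0.082) was not called. In Rev-nAAC hearts Rps2 was not called against sham at any age. The values were −0.24 ± 0.12 (adjusted p = 0.12), 0.12 ± 0.12 (adjusted p = 0.49) and −0.28 ± 0.12 (adjusted p = 0.053) at 4, 6 and 8 weeks. The 8-week value lay just past the threshold, with means of 608 CPM in Rev-nAAC, 509 CPM in nAAC and 739 CPM in sham libraries. Scaled to the members alone, Rps2 fell by 0.72, 0.44 and 0.66 with nAAC.

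The pair Rpl22 and Rpl22l1 had opposite calls under nAAC at 6 and 8 weeks. Rpl22 is a large subunit protein, and in mouse cells it is known to hold down its copy Rpl22l1. At 8 weeks Rpl22 read 199, 189, 192, 188 and 193 CPM in nAAC libraries, against 133, 144, 151, 143 and 145 CPM in sham libraries, with a log2 fold change of 0.42 ± 0.09 (adjusted p = 0.00013). The nAAC libraries were all above the sham libraries. Rpl22l1 read 32.8, 31.1, 32.6, 30.6 and 26.0 CPM in nAAC libraries, against 40.4, 43.1, 44.0, 34.6 and 49.0 CPM in sham libraries, with a log2 fold change of −0.46 ± 0.16 (adjusted p = 0.016). These groups did not overlap either, though the Rpl22l1 call was lost without sham replicate 5 (adjusted p = 0.0551). At 6 weeks Rpl22l1 fell by 0.44 ± 0.16 (adjusted p = 0.021), a call lost in 5 of the 10 fits that left out 1 library (values of −0.58 to −0.36, adjusted p up to 0.0737) and among male libraries (adjusted p = 0.13). At 4 weeks it was not called (0.09 ± 0.16, adjusted p = 0.68), when it read 54.8 and 56.6 CPM in nAAC replicates 3 and 5. In Rev-nAAC hearts at 8 weeks Rpl22 was still higher than in sham hearts, by 0.34 ± 0.09 (adjusted p = 0.0023), with 172 to 188 CPM, and Rpl22l1 was not called (−0.21 ± 0.16, adjusted p = 0.32).

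Rpl7l1, a nucleolar protein named for its likeness to Rpl7, was lower at 8 weeks with and without reversal. It read 41.0, 43.0, 40.6, 43.2 and 46.3 CPM in Rev-nAAC, 38.6, 42.1, 41.2, 39.5 and 41.7 CPM in nAAC and 54.2, 50.9, 56.9, 53.7 and 52.2 CPM in sham libraries. All 10 constricted libraries were below all 5 sham libraries, while Rev-nAAC and nAAC overlapped. The log2 fold change was −0.32 ± 0.07 for Rev-nAAC against sham (adjusted p = 0.00067), −0.40 ± 0.07 for nAAC against sham (adjusted p = 2.3e-05) and 0.08 ± 0.07 for Rev-nAAC against nAAC (adjusted p = 0.45). At 6 weeks the nAAC value of −0.15 ± 0.07 (adjusted p = 0.084) was not called. Of the other tested copies, Rps27l and Rpl6l were not called at 8 weeks, while Rpl3l and Rpl22l1 fell with nAAC as described above. With nAAC, Rps27l, a p53 target, read −0.04 ± 0.15 (adjusted p = 0.84). Rpl6l, which the annotation lists as a processed pseudogene, read 0.10 ± 0.13 (adjusted p = 0.52).

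Rps12, Rpl10, Rpl39 and Rps27 gave the steadier and the more variable of the small changes. Rps12, a small subunit protein, read 194, 180.0, 186, 193 and 183 CPM in nAAC and 119.5, 139, 159.8, 130.2 and 146 CPM in sham libraries at 8 weeks. All nAAC libraries were above all sham libraries, as they were at 6 weeks. Rpl10, which joins the large subunit late and is X-linked, read 464, 437, 422, 455 and 426 CPM in nAAC and 287, 319.6, 351, 325 and 307 CPM in sham libraries at 8 weeks. At 6 weeks Rpl10 was not called (0.16 ± 0.11, adjusted p = 0.24). Rpl39, a small protein of the exit tunnel and also X-linked, rose at all 3 ages, by 0.42 ± 0.14 (adjusted p = 0.017), 0.46 ± 0.14 (adjusted p = 0.0068) and 0.44 ± 0.14 (adjusted p = 0.0095). Of the 4 X-linked members Rpl10, Rpl36a, Rpl39 and Rps4x, 3, 1 and 3 rose at the 3 ages, and with male libraries alone Rpl39 read 0.53, 0.27 and 0.42, of which the 6-week value (adjusted p = 0.42) was not called. Rps27, whose start tract is shown above, rose at 4 weeks (0.35 ± 0.14, adjusted p = 0.039) and was not called at 6 weeks (−0.24 ± 0.14, adjusted p = 0.14) or 8 weeks (−0.03 ± 0.14, adjusted p = 0.87). At 4 weeks the Rps27 call was lost in 6 of the 10 fits that left out 1 library (adjusted p up to 0.215), and the Rpl39 call without nAAC replicate 3 (adjusted p = 0.129) or replicate 5 (adjusted p = 0.0878). Without both nAAC replicates 3 and 5 the 4-week values of Rps27 (−0.02), Rpl39 (0.01), Rpl10 (0.13) and Rps12 (0.22) were not called.

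**Figure D5:**
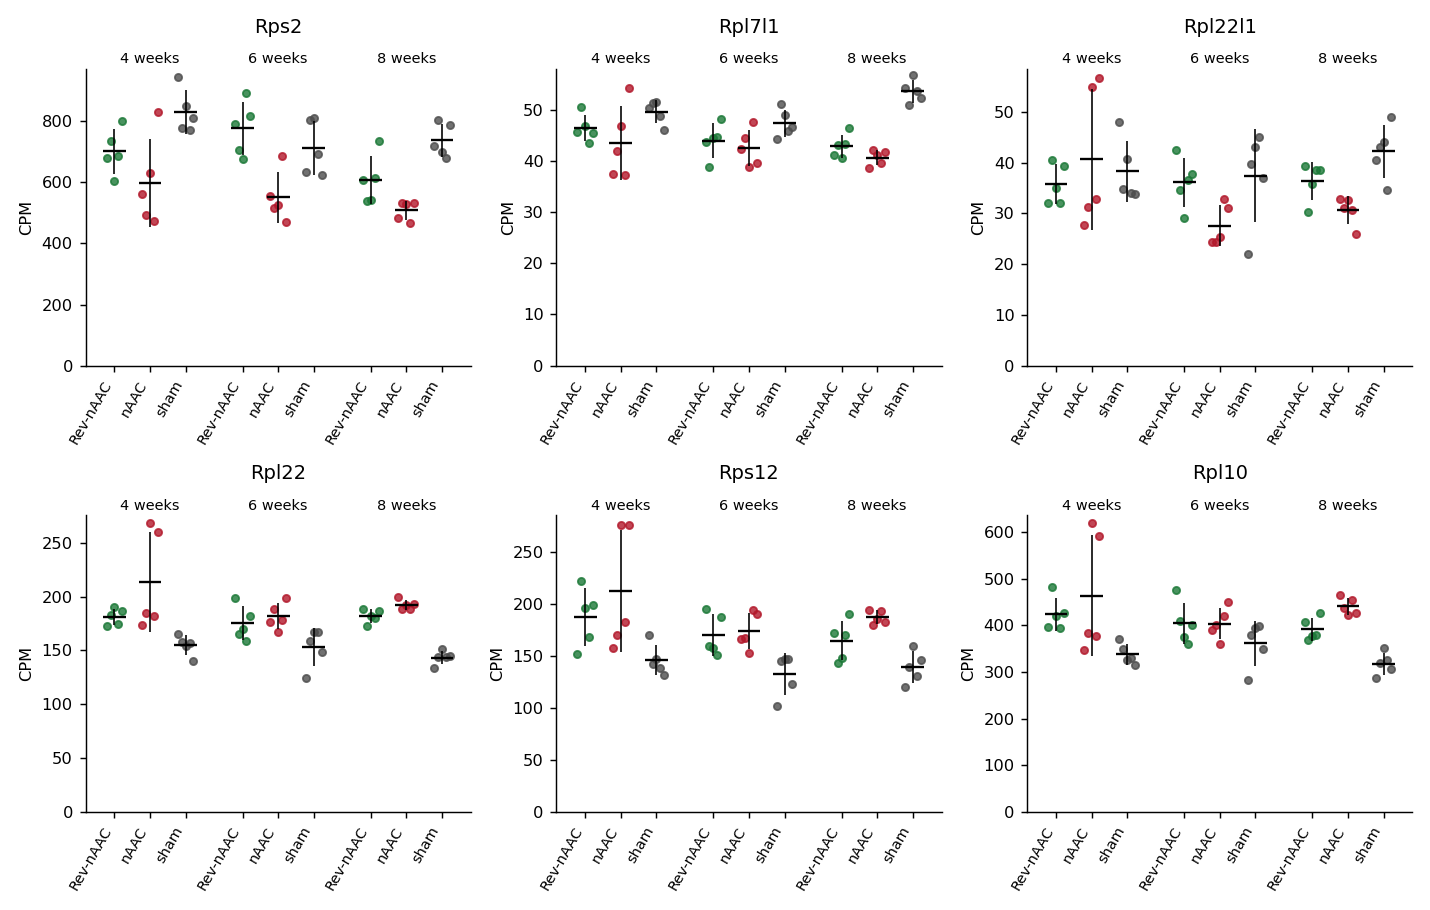
CPM of Rps2, Rpl7l1, Rpl22l1, Rpl22, Rps12 and Rpl10 in 45 libraries by age and operation. Points are libraries, bars are group means and lines the SD. At 8 weeks the nAAC libraries lie below the sham libraries for Rps2, Rpl7l1 and Rpl22l1 and above them for Rpl22, Rps12 and Rpl10.

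Against nAAC, few members were called in Rev-nAAC hearts. At 4 weeks none of the 81 was called, against 2.55% of all genes (0.79% higher and 1.76% lower), no member was free of overlap, against 0.809% of all genes all higher and 0.842% all lower, and the median was −0.13. An unadjusted p of 0.05 was passed by 5 members, all lower, and DESeq2 also called 0. At 6 weeks Rpl3l, Rps2 and Rps27 (0.37 ± 0.14, adjusted p = 0.046) rose and Rpl3 fell, against 13.8% and 12.1% of all genes (25.9% in either direction), and the median was 0.08. Only Rpl3l had every Rev-nAAC library above every nAAC library, against 8.59% of all genes, and no member had every one below, against 8.15%. The Rps27 call was lost in 8 of the 10 fits that left out 1 library. With scaling to short transcripts 2 rose and 4 fell, with a median of −0.05, and with scaling to the members 4 rose and 3 fell. At 8 weeks Rpl3l rose and Rpl3 fell, against 16.9% and 16.0% of all genes (32.9% in either direction), with a median of 0.05. Under the scaling to short transcripts 1 rose and 8 fell, with a median of −0.05, and under that to the members 3 rose and 6 fell. The shares of all genes under the scalings at 6 and 8 weeks are not given here. For 7 members, 6 of them of the small subunit, every Rev-nAAC library was above every nAAC library at 8 weeks, against 10.3% of all genes, and for 4 every one was below, against 9.91%.

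Against sham, most members had small positive values in Rev-nAAC hearts, and a minority were called. At 4 weeks 7 rose and 1 fell, against 12.2% and 13.1% of all genes (25.3% in either direction), with Rpl3, Rpl4 (0.24), Rpl10 (0.33 ± 0.11, adjusted p = 0.025) and Rps12 (0.36 ± 0.13, adjusted p = 0.030) at the smallest p and Rpl3l the one that fell. Leaving out 1 library ended the Rps12 call in 6 of 10 fits (adjusted p up to 0.101) and the Rpl10 call in 3 (up to 0.077), and the Rpl4 call was lost without Rev-nAAC replicate 2 (adjusted p = 0.064). For 6 members every Rev-nAAC library was above every sham library, against 8.62% of all genes, and for Rpl3l every one was below, against 11.1%. By the scaling to short transcripts 43 rose and 2 fell, and by that to the members 6 rose and 4 fell. For these and the later scalings against sham, the shares of all genes are not given here. At 6 weeks Rps12 (0.36 ± 0.13, adjusted p = 0.043) was the 1 member called, against 17.1% of all genes (8.66% higher and 8.39% lower), though 77 of the 81 values were positive and the median was 0.15. Its call was lost in 6 of the 10 fits that left out 1 library, with values of 0.28 to 0.40 and adjusted p up to 0.155. The scaling to short transcripts gave 3 rises and 1 fall, and that to the members 1 of each. For Rps12 and the small subunit gene Rps15, named after its values were seen, every Rev-nAAC library was above every sham library, against 5.54% of all genes, and for no member was every one below, against 6.63%. In the sham group replicate 1 stood low, with a member median of −0.46 on the log2 scale and 1.48% of its counts in the members. At 8 weeks 14 rose and 2 fell, against 18.3% and 17.3% of all genes (35.6% in either direction), with a median of 0.16. Among the 14 were Rpl22, Rps14 (0.46 ± 0.12, adjusted p = 0.0029) and Rps9 (0.35), and the 2 that fell were Rpl3l and Rpl7l1. For 26 members every Rev-nAAC library was above every sham library at 8 weeks, against 10.1% of all genes, and for 2 every one was below, against 12.1%. With the single male Rev-nAAC library at 8 weeks, no member was called and the median was 0.24. With all libraries scaled to the members, 8 rose and 9 fell. Comparisons with sham at one age share the same sham libraries, so the nAAC and Rev-nAAC values are not independent of each other.

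In sham hearts few members were called between ages. From 4 to 6 weeks Rpl3 was the 1 member called (0.43, adjusted p = 0.018), against 16.9% of all genes (7.32% higher and 9.58% lower), and its levels were 273 ± 27.2 CPM at 6 weeks and 203 ± 17.1 CPM at 4 weeks. The call was lost without sham replicate 4 at 6 weeks (adjusted p = 0.057), and scaled to the members 1 member rose and 1 fell. From 6 to 8 weeks none was called, against 1.83% of all genes. There 1 member passed an unadjusted p of 0.05 and DESeq2 called 0.

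The nAAC effect itself differed between ages for few members. At 6 weeks it was lower than at 4 weeks for Rps27 (−0.60 on the log2 scale, adjusted p = 0.029) and Rpl3 (−0.52, adjusted p = 0.042), against 17.3% of all genes called in either direction, with a member median of −0.22. Neither was called among male libraries (−0.70 and −0.60, adjusted p = 0.143 and 0.175). Of 20 fits that left out 1 library, 5 ended the Rps27 call (adjusted p up to 0.0844) and 12 the Rpl3 call (up to 0.133). Without nAAC replicates 3 and 5 at 4 weeks the median was 0.14, 3 members were called with a higher effect at 6 weeks, and Rps27 (−0.23) and Rpl3 (−0.26) were not called. Between 6 and 8 weeks no member was called, against 0.162% of all genes, with 1 at an unadjusted p under 0.05 and 0 by DESeq2. The difference between Rev-nAAC and nAAC in Rpl3l was larger at 6 than at 4 weeks, by 1.56 ± 0.41 (adjusted p = 0.033), against 2.69% of all genes. This comparison was added after seeing the data, and 8 alternative settings ended the call, with values of 0.83 to 1.57, as did 8 of 20 fits that left out 1 library (adjusted p up to 0.109).

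Proteins of the mitochondrial ribosome, the separate machine that translates the mitochondrial genome, gave other counts in the same libraries. Of 78 genes, 3 rose and 24 fell with nAAC at 4 weeks, 1 rose and 53 fell at 6 weeks, and 2 rose and 60 fell at 8 weeks, with medians of −0.17, −0.34 and −0.47. Of all genes 19.5%, 24.5% and 23.8% rose and 21.2%, 23.8% and 23.5% fell at the 3 ages. Rev-nAAC against nAAC gave 0, 32 and 18 higher and 0, 0 and 1 lower, with medians of −0.06, 0.24 and 0.15, against 0.79%, 13.8% and 16.9% of all genes higher and 1.76%, 12.1% and 16% lower. Against sham, Rev-nAAC gave 25, 9 and 44 lower and none higher, against 13.1%, 8.39% and 17.3% of all genes lower and 12.2%, 8.66% and 18.3% higher. The difference between the cytosolic and mitochondrial lists was not tested.

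Other parts of the translation machinery were counted with lists of textbook genes. Of 20 elongation factors and other TOP messages, 7, 9 and 11 rose and 0, 3 and 3 fell with nAAC at 4, 6 and 8 weeks, against 19.5%, 24.5% and 23.8% of all genes higher and 21.2%, 23.8% and 23.5% lower. Eef1a1, which carries aminoacyl tRNA to the ribosome, rose by 0.71 ± 0.13 (adjusted p = 4.0e-05) and 1.09 ± 0.13 (adjusted p = 1.3e-08) at 4 and 6 weeks and was also higher at 8 weeks (adjusted p = 6.9e-08). The snoRNA host Gas5, also a TOP transcript, rose by 0.83, 0.77 and 1.35. Of 36 initiation factors 13, 6 and 9 rose and 3, 9 and 8 fell, so that at 6 and 8 weeks both directions lay near the shares of all genes or below them. Eif3h of the scaffold factor eIF3 rose by 0.54 at 4 weeks and 0.51 at 6 weeks, and Eif4g2 fell by 0.46 at 6 weeks and 0.52 at 8 weeks. The 6 ribosomal proteins outside the naming pattern gave 2, 0 and 1 higher and none lower, with Fau, the precursor of Rps30, at 0.42 and 0.35 at 4 and 8 weeks and Rack1 at 0.26 at 4 weeks.

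Of 51 ribosome assembly genes, 18, 16 and 17 rose and 2, 6 and 8 fell with nAAC at 4, 6 and 8 weeks, where 19.5%, 24.5% and 23.8% of all genes rose and 21.2%, 23.8% and 23.5% fell. Rrp12, needed in yeast for the export of both subunits, rose by 1.37 ± 0.13 (adjusted p = 2.5e-10) at 4 weeks and 1.19 ± 0.13 (adjusted p = 2.1e-09) at 6 weeks, and in Rev-nAAC hearts it fell by 0.77 and 0.75 against nAAC at 6 and 8 weeks. Rrs1, which in yeast brings the 5S particle into the large subunit, fell by 0.66 with nAAC at 8 weeks and rose by 0.63 with Rev-nAAC against nAAC. Among 20 tested genes of RNA polymerase I, which makes the ribosomal RNA, 4, 3 and 5 rose and 3, 2 and 2 fell, close to or below the shares of all genes, and the initiation factor Rrn3 fell by 0.42 at 6 weeks and 0.51 at 8 weeks. Of 27 mTOR and Myc regulators 8, 5 and 6 rose and 3, 11 and 8 fell. Myc, an activator of ribosome production, rose by 1.71 ± 0.28 (adjusted p = 6.9e-06), 2.07 ± 0.29 (adjusted p = 1.7e-07) and 1.96 ± 0.28 (adjusted p = 3.5e-07), and fell by 1.07 ± 0.27 (adjusted p = 0.0030) with Rev-nAAC against nAAC at 6 weeks. Maf1, a repressor of RNA polymerase III, rose with Rev-nAAC against nAAC by 0.37 at 6 weeks and 0.51 at 8 weeks. Of 18 p53 targets 4, 10 and 7 rose and 3, 3 and 2 fell with nAAC. The cell cycle inhibitor Cdkn1a was among the rises at 6 weeks (2.77 ± 0.39, adjusted p = 3.5e-07).

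Ribosomal protein genes have many near-identical pseudogenes, and how the authors counted reads that match several places is not given in the sources used here. Of the 83 members, 38 share over 50% of the 50-base windows of their transcript with another annotated transcript, and the median share is 47.4%. Rpl3l shares none, and its longest stretch identical to Rpl3 is 22 bases, so no 50-base window of Rpl3 matches it. Rpl3 shares 85.6%, most often with Rpl3-ps1, and Rps2 71.3%, Rps12 83.6%, Rpl10 85.4% and Rpl22l1 65.6%. Their levels are therefore uncertain in a way that those of Rpl3l, Rpl22 (5.20%) and Rpl7l1 (9.19%) are not. The longest stretch shared by Rpl22l1 and Rpl22 is 26 bases.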

How the data were processed

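Total RNA from left ventricle was sequenced in 45 libraries of 9 groups. The deposited table gives raw counts per gene, which the authors made with fastp 0.20.1, HISAT2 2.1.0 and HTSeq 0.11.2 on GRCm38, per the submitters' processing notes. The annotation, the strand setting and the treatment of reads with several matches are not given in the sources used here. Of 27007 genes, 15444 passed filterByExpr (minimum count 10, minimum total 15). Counts were scaled with TMM and tested with edgeR 4.0.16 in R 4.3.3 (quasi-likelihood, 1 model over all groups), with Benjamini-Hochberg adjustment within a comparison at 0.05. CPM use the TMM library sizes. The script was tested on simulated data. Replicate numbers did not pair the libraries: in each of 9 comparisons at most 2 of 5 same-numbered pairs correlated over 0.1. No libraries were copies of each other, with a highest correlation of 0.995, and 0 columns were left unused.

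The members and the lists beside them were chosen with earlier results of these data known. Folds are given for Rpl3, Rpl3l, the other copies and their counterparts, the stalk, 7 members known from disease or signalling, and up to 4 members a direction with the smallest p in a comparison. The values of 1 gene that this rule names are not reported here. From each list up to 3 genes are named by the same measure. Start sites and promoters come from RefSeq on GRCm38.p6 and transcript lengths from the longest coding transcript in GENCODE M21. Alternatives were other scalings, no filter, DESeq2 1.42.0, voom of limma 3.58.1 with quality weights, fewer groups, a replicate block, sex as a term, male libraries alone and libraries left out. Shares of all genes are those of the main fit throughout, so counts of members under the alternatives stand without a share of their own.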

Additional observations from a re-analysis of the deposited data

Results flagged for a closer look

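Within groups of 5 libraries, a few values stood off from the other 4 by more than Dixon's limit, which chance passes in about 1 in 20 groups. Over all members and groups 17 of 729 sets did so (2.33%). Rpl3l in Rev-nAAC replicate 5 at 8 weeks, with 119 CPM, was the highest of its group, and its share of the Rpl3 and Rpl3l counts there, 29.2%, stood off in the same way. Rps27 in nAAC replicate 2 at 8 weeks, with 166 CPM, was the lowest of its group. The members took 2.26% of the counts in sham replicate 1 at 4 weeks, the highest of that group.

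The effect of nAAC against sham differed between 6 and 4 weeks for Rps27, by −0.60 on the log2 scale, and for Rpl3, by −0.52, and the difference of Rev-nAAC from nAAC in Rpl3l differed between these ages by 1.56, each by a test of the difference in edgeR.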

How the results depend on the processing

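The calls of Rpl3, Rpl3l and Rps2 with nAAC against sham held in every alternative run at 4, 6 and 8 weeks, and the number of other members called did not. Counts of called members that changed by over 1.5 times are given here by comparison, and the cause was not tested. The 4 doubted libraries were nAAC replicates 1 and 5 and Rev-nAAC replicate 2 at 4 weeks, and Rev-nAAC replicate 4 at 8 weeks. Without Rev-nAAC replicate 2 alone, 2 members were called for Rev-nAAC against sham at 4 weeks. For nAAC against sham at 4 weeks, 44 became 10 with voom weights, 10 with only the compared groups, 29 with sex as a term, 25 without 4 doubted libraries, 10 without nAAC replicates 3 and 5 and 18 scaled to the members. At 6 weeks 8 became 15 (voom), 3 (males), 19 (members) and 36 (short transcripts). At 8 weeks 21 became 12 with no filter, 37 (voom), 41 (compared groups) and 47 (short transcripts). For Rev-nAAC against nAAC at 4 weeks, 0 became 2 (voom), 2 (males), 1 (doubted libraries), 1 (nAAC replicate 1 as sham) and 1 (short transcripts). At 6 weeks 4 became 2 (males) and 7 (members), and at 8 weeks 2 became 5 (voom), 7 (compared groups), 1 (males), 9 (members) and 9 (short transcripts). For Rev-nAAC against sham at 4 weeks, 8 became 14 (voom), 15 (compared groups), 5 (sex), 3 (males), 4 (doubted libraries) and 45 (short transcripts). At 6 weeks 1 became 0 (no filter), 5 (voom), 3 (compared groups), 0 (sex), 2 (members) and 4 (short transcripts). At 8 weeks 16 became 10 (no filter), 34 (voom), 33 (compared groups), 0 (males) and 29 (short transcripts). For sham at 6 against 4 weeks, 1 became 5 (voom), 2 (compared groups), 0 (nAAC replicate 1 as sham), 2 (members) and 2 (short transcripts), and at 8 against 6 weeks 0 became 4 (voom). For the nAAC effect at 6 minus 4 weeks, 2 became 1 (voom), 0 (compared groups), 1 with the replicate block, 0 (males), 7 (nAAC replicate 1 as sham) and 1 (members). The 1 call for Rev-nAAC against nAAC, 6 minus 4 weeks, became 0 with no filter, voom, compared groups, males, doubted libraries, nAAC replicate 1 as sham, members and short transcripts.

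Leaving out 1 library gave 15 (without nAAC replicate 5) to 59 (without nAAC replicate 1) calls for nAAC against sham at 4 weeks, 6 to 9 at 6 and 12 to 20 at 8 weeks, 0 to 1, 3 to 5 and 2 to 2 for Rev-nAAC against nAAC, 2 to 13, 0 to 3 and 11 to 17 for Rev-nAAC against sham, 0 to 1 and 0 to 0 for sham ages, 0 to 6 and 0 to 0 for the nAAC effects, and 0 to 1 for Rev-nAAC against nAAC, 6 minus 4 weeks. Near-zero values changed sign: Rps27 with nAAC at 4 weeks (−0.019 without nAAC replicates 3 and 5), and Rpl3 in Rev-nAAC against sham at 6 weeks (−0.073 scaled to the members, −0.057 to 0.17 with 1 library left out) and 8 weeks (−0.0083 with RLE and with DESeq2, −0.022 with no filter, −0.011 in males, −0.15 scaled to the members, −0.031 to short transcripts, −0.026 to 0.047 with 1 left out). Scaled to the members, the median of all genes for nAAC against sham at 4 weeks was −0.21 on the log2 scale, and scaled to short transcripts that for Rev-nAAC against nAAC at 6 weeks was −0.13. The replicate block changed no other count by over 1.5 times. Settings that leave nAAC replicates 3 and 5 out together or scale to members or short transcripts were chosen after seeing the data. Depth limits Rpl32l and Rpl39l, with at most 15 counts a library.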

Other observations

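Rps2 and Rpl3l, the 2 members that fell with nAAC at all 3 ages, lie near each other on chromosome 17 of GRCm38.p6, Rps2 at 24718121 to 24721927 and Rpl3l at 24727826 to 24736143, with Ndufb10, a subunit of respiratory complex I, between them. The gap from the end of Rps2 to the start of Rpl3l is 5898 bases. With nAAC, Ndufb10 was not called at 4 weeks (−0.26 ± 0.12, adjusted p = 0.079) and fell at 6 weeks (−0.55 ± 0.12, adjusted p = 0.00024) and 8 weeks (−0.64 ± 0.12, adjusted p = 3.7e-05), by edgeR's quasi-likelihood test. Msrb1, a methionine sulfoxide reductase on the far side of Rpl3l, read −0.09 (adjusted p = 0.57), −0.49 (adjusted p = 0.00075) and −0.56 (adjusted p = 0.00013). With Rev-nAAC against nAAC at 6 weeks, Ndufb10 rose by 0.46 ± 0.12 (adjusted p = 0.0044), while Msrb1 was not called (−0.02 ± 0.12, adjusted p = 0.94). Of all genes 21.2%, 23.8% and 23.5% fell with nAAC at 4, 6 and 8 weeks, and 13.8% rose with Rev-nAAC against nAAC at 6 weeks. Values of the other genes nearby are not given here, so a shared change of the region is not shown. The neighbourhood was looked at after the values of Rps2 and Rpl3l were known, and no link between the genes was tested.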
